A study of Rattus norvegicus with 4 samples.

Results

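The genes described here code for chemokines, interleukins and colony-stimulating factors (CSFs) and for their receptors, as measured in the rat Schwann cell line S16. They were chosen by symbol alone: every listed gene whose symbol begins with Ccl, Cxcl, Ccr, Cxcr, Il or Csf followed by a digit, together with *Cx3cl1* and *Cx3cr1*. The rule found 138 of the 30708 listed genes, of which 73 code for ligands, 62 for receptors and 3 for soluble inhibitors or binding proteins. S16 cells are an immortalized line derived from rat Schwann cells, the glia that myelinate peripheral axons. Unmodified S16 cells of 2 populations were compared, the population at passage 9, from which the rSOX-4 enhancer mutants of the study were made, and an older population at passage 39. No deletion, construct or treatment was given to either population, and RNA came from confluent flasks grown in standard medium with L-glutamine. Each population gave 2 poly(A) RNA-Seq libraries, which the labels call technical replicates 1 and 2. They are called here the first and the second library of a passage.

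Chemokines are small secreted proteins that guide migrating cells through G protein-coupled receptors, while most interleukins signal through receptor chains that recruit Janus kinases, as GM-CSF and G-CSF do. The interleukin 1 and 17 families use adaptor proteins that lead to NF-kappaB, and *Csf1* and *Il34* act on *Csf1r*, a receptor tyrosine kinase. Many interleukin receptors are built from a chain that recognises 1 ligand and a chain shared by several, such as gp130, the product of *Il6st*. In peripheral nerve, Schwann cells are known to make several of these factors after injury, among them *Ccl2*, *Il6* and *Csf1*, which draw in and maintain macrophages.

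Values are RPKM, reads per kilobase of gene length scaled to 1000000 reads, so that levels can be set side by side between genes. A gene was called detected where the mean of the 2 libraries was at least 1 RPKM in both populations. The RPKM values held whole numbers of reads, and totals of 34246093 to 41382234 reads were recovered for the 4 libraries. At these depths 3 reads on a gene of 1 kb came to 0.0725 to 0.0876 RPKM. Zeros are given only as listed at 0, because 1 of 78 ribosomal protein genes was also listed at 0 in every library. The line carried its labelled identity, since all 9 Schwann cell markers looked up were detected, with *Sox10*, a transcription factor that defines the Schwann cell lineage, between 171 and 183 RPKM.

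The libraries did not group by passage. For the 26 chemokine, interleukin and CSF genes averaging 1 RPKM or more, the SD of the log2 differences was 0.852 between the libraries of passage 9 and 0.856 between those of passage 39. It was 0.127 between the first libraries of both passages and 0.104 between the second ones. The chi-square of the reads, about 1 per gene where libraries differ by counting alone, averaged 101 and 92.7 per gene between libraries of the same passage, but 1.31 and 1.25 between libraries of the same technical replicate number, over the 40 to 44 genes of the whole set with at least 20 reads in the pair. The labels do not say what the 2 numbers stand for. The paper's methods describe technical replicates that were pooled and sequenced over 2 lanes, but do not link a number to a lane. Whether the numbers mark a preparation or sequencing batch, or whether labels of 2 libraries were exchanged, cannot be told apart from these values. All values are therefore given by library, and both ways of pairing the libraries are described. With 2 libraries on each side an exact permutation test, two-sided, cannot go below p = 0.333, and each passage is a single population, so no test of either comparison was run and nothing here measures the spread between cultures.

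Of the 138 genes, 25 were detected, or 18.1%, against 35.7% of all listed genes. At least 10 reads in every library were held by 36 genes, or 26.1%, against 42.3% of all. Another 62 had reads in at least 1 library but stayed below this level, and 51, or 37.0%, were listed at 0 in all 4 libraries, against 33.8% of all genes. Detected genes of the set had a median of 6.34 RPKM, against 11.2 RPKM for all detected genes. Reads on the whole set made up 0.114% to 0.118% of each library, and *Il6st* alone took 38.6% to 47.2% of them.

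At the minimum of 1 RPKM, ligands and receptors were detected in similar shares, 12 of 73 ligands (16.4%) and 12 of 62 receptors (19.4%). The shares were not similar by reads, as 13 of the 73 ligands but 22 of the 62 receptors had at least 10 reads in every library. A fixed number of reads is reached more easily by long genes. Among genes averaging 1 RPKM or more, median recovered lengths were 1633 bp for ligands and 3696 bp for receptors. The part of length in this count was not tested. The detected ligands had a median of 5.44 RPKM and the detected receptors one of 6.76 RPKM. Within receptors, interleukin receptor subunits were detected in 10 of 40 cases and chemokine receptors in 2 of 18, with 11 of the chemokine receptors listed at 0 throughout. Among ligands, 7 of 33 chemokines, 4 of 37 interleukins and 1 of 3 CSFs were detected. None of the 4 CSF receptor genes was.

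**Figure D1:**
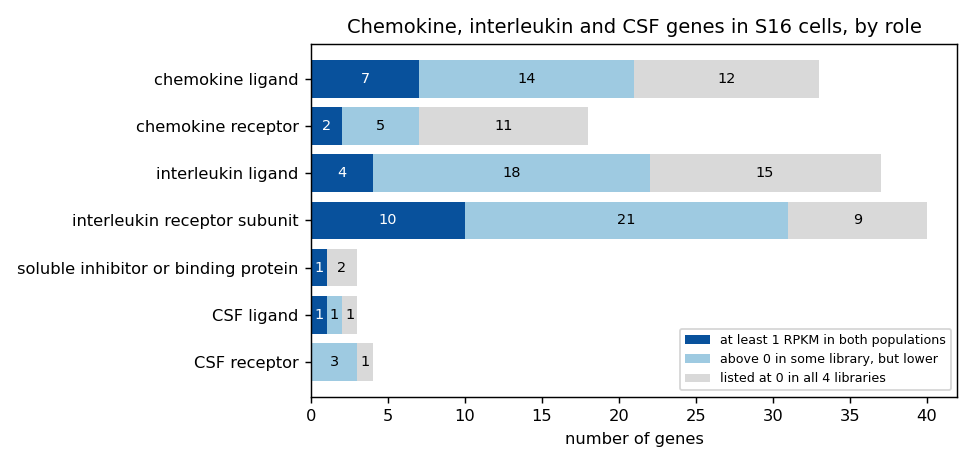
Number of genes (horizontal axis) in each role, split into genes with at least 1 RPKM in both populations, genes above 0 in some library but lower, and genes listed at 0 in all 4 libraries. Interleukin receptor subunits held the most detected genes, 10 of 40, and chemokine receptors had 11 of 18 listed at 0.

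The highest level belonged to *Il6st*, the signalling chain shared by the interleukin 6 family, whose first and second libraries gave 66.9 and 54.0 RPKM at passage 9, then 68.3 and 54.6 RPKM at passage 39. It ranked 1105 among all genes. *Cxcl14*, a chemokine made by many epithelial and stromal cells, followed, its first libraries at 37.4 and 39.7 RPKM and its second ones at 56.9 and 57.8 RPKM. *Csf1*, the growth factor of macrophages and microglia, gave 23.8 and 23.7 RPKM in the first libraries of passages 9 and 39 and at most 25.1 RPKM in the second ones. Averaged over the populations the 3 genes stood at 60.9 ± 0.719, 47.9 ± 1.15 and 24.4 ± 0.0586 RPKM (SD, n = 2 populations). Each population mean averages a first and a second library, so this SD leaves out the difference between them. *Csf1* differed little among the 4 libraries, whereas *Il6st* was higher in both first libraries and *Cxcl14* in both second ones.

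A second tier averaged several RPKM to a little over 13 RPKM. Its members that split strongly between first and second libraries are described further on. *Il17rc* and *Il17ra*, which together form the receptor for interleukin 17A and 17F, had 12.3, 14.4, 11.7 and 14.3 RPKM and 11.2, 13.6, 11.1 and 13.3 RPKM, respectively, in the order passage 9 first, passage 9 second, passage 39 first and passage 39 second library, which is kept from here on. *Cx3cl1*, the membrane-bound chemokine fractalkine, had 11.0, 12.5, 11.2 and 12.8 RPKM. *Il1r1*, the signalling receptor for interleukin 1, gave 8.84, 10.2, 8.66 and 10.7 RPKM. All 4 were higher in both second libraries, by 0.17 to 0.25 on the log2(RPKM + 1) scale as deposited and by 0.037 to 0.11 with libraries scaled to the same sum. *Ccl17*, a chemokine that attracts T cells, had 7.20, 9.60, 7.56 and 7.60 RPKM, but these values came from 73 to 95 reads. *Il10rb*, a chain shared by receptors of the interleukin 10 family, and *Il16*, a secreted CD4 ligand, stayed within 5.92 to 7.43 and 5.90 to 6.86 RPKM.

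Other detected genes were lower. *Il11ra1*, the interleukin 11 receptor, lay between 4.51 and 5.72 RPKM and *Il3ra*, the ligand-binding chain for interleukin 3, between 2.77 and 3.29 RPKM. *Il17d*, a less studied interleukin 17 family member, had 2.20, 3.30, 2.09 and 3.29 RPKM, with both second libraries above both first ones. *Il6r*, the ligand-binding partner of gp130, gave 1.32, 1.72, 1.51 and 1.73 RPKM, far below *Il6st*. *Il18bp*, which neutralises interleukin 18, had 2.25, 2.36, 1.70 and 2.14 RPKM, and *Il34*, the other ligand of the CSF1 receptor, had 1.40, 1.31, 1.29 and 1.16 RPKM. *Csf2ra*, the ligand-binding chain of the GM-CSF receptor, averaged at least 1 RPKM over the populations but fell short of it at passage 39, with 1.24, 1.25, 0.707 and 1.05 RPKM. *Il27ra* and *Il21* lay just under 1 RPKM on average, with *Il21* on 7 to 20 reads per library. *Il12rb2*, a chain of the interleukin 12 receptor, had 0.872, 0.531, 0.881 and 0.485 RPKM, with both first libraries above both second ones.

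**Figure D2:**
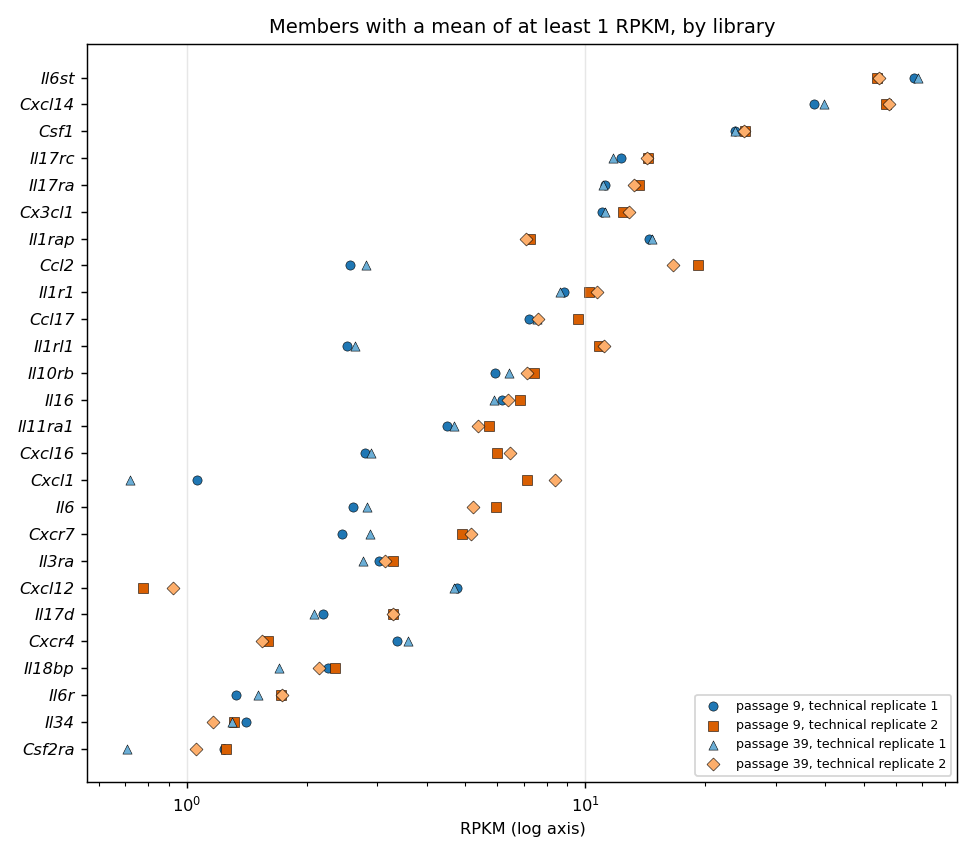
RPKM (horizontal log axis) of the 26 genes averaging 1 RPKM or more in each of the 4 libraries, sorted by mean, with blue marks for first and orange marks for second libraries. Blue and orange marks lie far apart for Ccl2, Il1rl1, Cxcl1 and Cxcl12, while marks of the same colour lie close together.

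Ligands and their receptors were seldom detected together. Of 33 ligand and receptor pairs looked up, both sides were detected in 4, namely *Cxcl12* with *Cxcr4*, *Cxcl12* with its atypical receptor *Cxcr7* (*Ackr3*), and *Il6* with each of *Il6r* and *Il6st*. In 6 pairs the ligand was detected and the receptor was not. These were *Csf1* and *Il34* with *Csf1r*, *Cxcl1* with *Cxcr2*, *Cxcl16* with *Cxcr6*, *Cx3cl1* with *Cx3cr1*, and *Il16* with *Cd4*. *Csf1r*, the receptor that marks macrophages, averaged 0.145 RPKM, and both *Cxcr2* and *Cx3cr1* were listed at 0 in every library. In 5 pairs the receptor was detected and the ligand was not, namely *Il1r1* with *Il1a* and *Il1b*, *Il11ra1* with *Il11*, *Il17ra* with *Il17a*, and *Il1rl1* with *Il33*. Neither side was detected in 17 pairs, and the partner of *Ccl2*, *Ccr2*, was not analysed here. Of the 17, the chemokine pairs included *Ccl20* with *Ccr6*, *Ccl25* with *Ccr9*, *Ccl27* with *Ccr10*, both *Ccl19* and *Ccl21* with *Ccr7*, *Cxcl10* with *Cxcr3* and *Cxcl13* with *Cxcr5*. The CSF and interleukin pairs were *Csf2* with *Csf2ra*, *Csf3* with *Csf3r*, and the ligands *Il2*, *Il4*, *Il7*, *Il10*, *Il13*, *Il15* and *Il18* with *Il2ra*, *Il4r*, *Il7r*, *Il10ra*, *Il13ra1*, *Il15ra* and *Il18r1*. The 51 genes of the set listed at 0 in all 4 libraries included *Il1b*, *Il2*, *Il4*, *Il13*, *Il17a*, *Csf2*, *Ccl3*, *Ccl4* and *Ccl5*.

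Markers of other cell types bear on these levels, because in bulk RNA fewer cells of a type and less RNA per cell cannot be told apart. Of 12 macrophage and leukocyte markers, 2 were detected, *Cd68* and *Cd14*. The summed level of the 12 was lowest, at 3.11 RPKM, in the first library of passage 39 and highest, at 3.999 RPKM, in the second of passage 9, and the defining genes *Ptprc*, *Itgam*, *Emr1* and *Lyz2* were listed at 0 in all 4 libraries. Of 10 T and B lymphocyte markers only *Cd3g* was detected, at 5.95 to 8.04 RPKM, within a sum of 6.13 to 8.20 RPKM, while *Cd3d*, *Cd79a*, *Cd79b* and *Ms4a1* were listed at 0. No mast cell, granulocyte or endothelial marker was detected, with sums of at most 0.105 and 0.498 RPKM, and *Cpa3*, *Elane*, *Cdh5* and *Kdr* were listed at 0. Of 7 fibroblast markers 3 were detected, with a sum of 3432 to 3934 RPKM carried by *Col1a1*, at 3344 to 3877 RPKM, while *Thy1* was listed at 0.

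As labelled, the set was nearly level between passages. If labels of 2 libraries were exchanged, each passage mean would mix both populations, and the differences given here would say nothing about passage. None of the 26 genes averaging 1 RPKM or more differed 2-fold on the log2(RPKM + 1) scale, where 0.00907% of all such genes did. With a single population per passage this count comes from no test. Differences of passage 39 from passage 9 ran from -0.26 for *Csf2ra* to 0.12 for *Cxcl1*, with a median of 0.0014. Compared within the first libraries alone they ran from -0.39 for *Csf2ra* to 0.17 for *Cxcr7*, and within the second libraries alone from -0.30 for *Ccl17* to 0.21 for *Cxcl1*. Both libraries of passage 39 lay below both of passage 9 for 3 genes, *Il18bp*, *Il34* and *Csf2ra*, and above them for none. These 3 make up 11.5% of the 26, against 6.21% of all genes with values apart in either direction. None of the 47 genes of the set with at least 20 reads had 95% counting intervals (exact Clopper-Pearson) that were apart between passages, nor did any other gene, at 0%. Under both rules a gene apart between technical replicate numbers cannot also be apart between passages. Such genes were 23 of the 26 by values (87.7% of all genes) and 21 of the 47 by intervals (40.4% of all genes). For them these counts say nothing about passage. The passage comparison depends on both libraries of each population being present. Without the second library of passage 9, or without that of passage 39, *Ccl2*, *Il1rl1* and *Cxcl1* differed 2-fold, and without the first library of passage 9 *Cxcl12* did.

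Between technical replicate numbers, the chemokines *Ccl2* and *Cxcl1* and the receptor *Il1rl1* were much higher in the second libraries and the chemokine *Cxcl12* was much lower. A difference of 2-fold or more (log2(RPKM + 1) scale) was found for 4 of the 26 genes, or 15.4%, against 1.09% of all genes. In the higher direction it was 3 of 26, against 0.363% of all genes, and in the lower direction 1 of 26, against 0.726%. The same 4 genes passed within passage 9 alone and within passage 39 alone. Values of the second libraries lay apart from those of the first for 23 of the 26 genes, or 88.5%, which is close to the 87.7% of all genes. Of these 19 were higher, against 57.2% of all genes, and 4 were lower, namely *Il6st*, *Il1rap*, *Cxcl12* and *Cxcr4*, against 30.5%. This split depends on the scaling. With libraries scaled to the same sum 15 genes were higher and 6 lower, against 37.7% and 46.3% of all genes, and 15 and 6 were also counted with median-ratio scaling, against 45.8% and 39.4%. The median difference of all genes was 0.10 as deposited and -0.023 and 0.027 under these scalings.

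*Ccl2*, the main monocyte attractant, had 2.57, 19.1, 2.81 and 16.6 RPKM, from 83, 524, 75 and 533 reads. Both second libraries were far above both first ones. The difference was 2.36 on the log2(RPKM + 1) scale, and the read share, reads divided by the total of the library, was 6.64 times as high in the second libraries (95% exact interval 5.61 to 7.90). Such intervals hold counting error alone, as PCR copies of a molecule were not told apart.

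*Cxcl1*, a neutrophil attractant, had 1.06, 7.12, 0.720 and 8.37 RPKM, from 41, 233, 23 and 321 reads. The groups did not overlap, with a difference of 2.21 and a read share 8.59 times as high in the second libraries (6.63 to 11.3). Its receptor *Cxcr2* was listed at 0 throughout.

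*Il1rl1*, also called ST2, the receptor for interleukin 33, had 2.53, 10.8, 2.65 and 11.1 RPKM, from 576, 2094, 499 and 2515 reads. It was higher in both second libraries by 1.74, with a ratio of read shares of 4.26 (3.98 to 4.55). Its partner chain moved the other way. *Il1rap*, the accessory protein shared by the receptors for interleukin 1, 33 and 36, had 14.4, 7.24, 14.7 and 7.10 RPKM, a difference of -0.93, and its read share was 2.03 times as high in the first libraries (1.95 to 2.11). The ligand *Il33* was scarce, with 14, 1, 12 and 2 reads, and its read share was 8.73 times as high in the first libraries (2.68 to 45.1).

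*Cxcl12*, the stromal chemokine that retains progenitor cells and guides glial and neuronal migration, had 4.77, 0.774, 4.69 and 0.921 RPKM, from 1365, 188, 1111 and 262 reads. Both second libraries were below both first ones, by 1.63 on the log2(RPKM + 1) scale, and its read share was 5.54 times as high in the first libraries (5.01 to 6.14). Its signalling receptor *Cxcr4* was also lower in the second libraries, with 3.37, 1.60, 3.59 and 1.54 RPKM and a ratio of 2.21 in favour of the first (1.74 to 2.82). The scavenging receptor *Cxcr7* (*Ackr3*) was instead higher there, with 2.45, 4.90, 2.88 and 5.18 RPKM and a ratio of 1.91 (1.55 to 2.35).

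Further genes had differences of about 2-fold. *Il6*, the inflammatory ligand of gp130, had 2.61, 5.97, 2.82 and 5.22 RPKM and a ratio of 2.06 (1.74 to 2.43). *Cxcl16*, a membrane-bound chemokine that also acts as a scavenger receptor, had 2.79, 6.01, 2.90 and 6.47 RPKM and a ratio of 2.20 (1.92 to 2.54). Both were higher in both second libraries, as was *Cxcl14*, by 0.56 on the log2(RPKM + 1) scale and with a ratio of 1.49 (1.44 to 1.55). *Il6st* stood lower in them by 0.31, its read share being 1.24 times as high in the first libraries (1.23 to 1.26). *Csf1* differed by 0.076 as deposited, with a ratio of 1.06 (1.03 to 1.09), and by -0.065 with libraries scaled to the same sum.

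**Figure D3:**
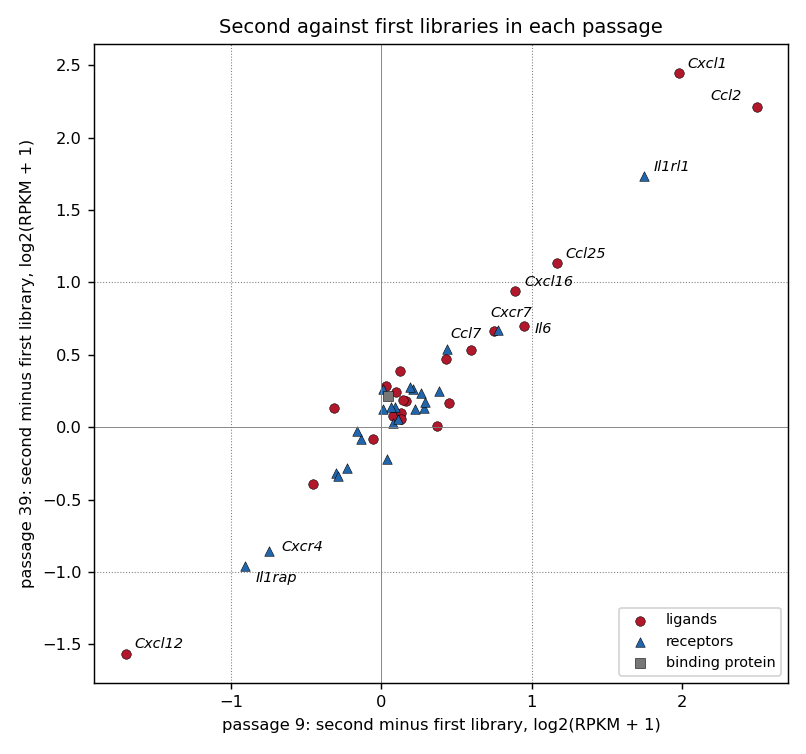
Difference between the second and the first library on the log2(RPKM + 1) scale at passage 9 (horizontal axis) and passage 39 (vertical axis) for genes of the set averaging 0.1 RPKM or more, with dotted lines at 2-fold. Ccl2, Cxcl1, Il1rl1 and Ccl25 lie beyond 2-fold at upper right and Cxcl12 at lower left in both passages.

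Where counting intervals decide, scarce genes also enter. Among the 47 genes of the set with at least 20 reads, 21 had 95% intervals apart between first and second libraries (44.7%, against 40.4% of all genes with as many reads), 14 of them higher in the second libraries, against 25.4% of all genes, and 7 lower, against 15%. Intervals apart together with an RPKM ratio of at least 2 were found for 13 of the 47, or 27.7%, against 3.43% of all genes. Of these, 8 were higher in the second libraries (1.15% of all genes), comprising 6 ligands, namely *Ccl2*, *Cxcl1*, *Cxcl16*, *Il6*, *Ccl25* and *Ccl7*, and 2 receptors, *Il1rl1* and *Il5ra*. Lower there were 5 (2.28% of all genes), the ligands *Cxcl12* and *Il33* and the receptors *Il1rap*, *Cxcr4* and *Il17rd*. *Ccl25*, a chemokine known from thymus and gut, rested on 3, 65, 4 and 77 reads, and its read share was 20.1 times as high in the second libraries (9.52 to 51.0). *Ccl7*, a monocyte attractant next to *Ccl2* in the genome, had 9, 32, 4 and 27 reads and a ratio of 4.51 (2.44 to 8.96). *Il5ra*, the ligand-binding chain for interleukin 5, had 29, 84, 21 and 114 reads and a ratio of 3.93 (2.87 to 5.47).

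Several of these genes are neighbours, and neighbours did not always differ alike. In the GRCr8 rat assembly *Ccl2*, *Ccl7*, *Ccl11*, *Ccl12* and *Ccl1* follow each other on chromosome 10, and of these only *Ccl2* was detected. *Ccl11* had at most 7 reads in a library, and *Ccl12* and *Ccl1* were listed at 0. On chromosome 9, *Il1r1*, *Il1rl2*, *Il1rl1*, *Il18r1* and *Il18rap* are adjacent. *Il1r1* differed by 0.23 on the log2(RPKM + 1) scale where *Il1rl1* differed by 1.74, and the other genes of this run had at most 4 reads in any library. The run of *Il36g*, *Il36a*, *Il36b*, *Il36rn*, *Il1f10* and *Il1rn* on chromosome 3 was listed at 0 throughout. Reads were counted without regard to strand, so values of genes that overlap another in GRCr8 are uncertain. These include *Cxcl16* (with *Zmynd15*), *Il6r* (with *She*), *Il11ra1* (with *Ccl27*) and *Il17rd* (with *Arhgef3*). *Il6st*, *Csf1*, *Il1rap*, *Il16*, *Il34* and *Il33* also overlap another entry there.

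Promoter sequence is shown for 3 chemokine or interleukin genes that were higher in the second libraries and for *Cxcl12*, which was lower, to set the letters before their starts side by side. Sequences are from RefSeq on GRCr8, 250 bases up to the base before the start of the gene, read 5′ to 3′ on the strand of the gene. They are chr14:17479322-17479571 (minus strand) for *Cxcl1*, chr4:5894576-5894825 (minus strand) for *Il6*, chr10:67513845-67514094 (plus strand) for *Ccl7* and chr4:152060531-152060780 (plus strand) for *Cxcl12*. Capitals mark matches to 2 overlapping patterns of the kind NF-kappaB binds, one being GGG, any 2 bases and TTTCC and the other GGGA, any 2 bases and TTCC, or to the AP-1 pattern TGANTCA, each searched on both strands.
Cxcl1: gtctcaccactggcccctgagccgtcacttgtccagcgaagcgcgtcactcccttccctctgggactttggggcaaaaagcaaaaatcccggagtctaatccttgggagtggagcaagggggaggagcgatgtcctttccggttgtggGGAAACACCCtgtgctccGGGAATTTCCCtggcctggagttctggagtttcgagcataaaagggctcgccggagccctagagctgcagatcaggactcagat
Il6: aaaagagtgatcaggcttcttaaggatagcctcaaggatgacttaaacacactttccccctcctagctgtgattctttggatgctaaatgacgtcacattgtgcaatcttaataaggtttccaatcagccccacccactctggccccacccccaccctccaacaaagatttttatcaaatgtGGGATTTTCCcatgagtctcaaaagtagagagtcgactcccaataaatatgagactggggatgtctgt
Ccl7: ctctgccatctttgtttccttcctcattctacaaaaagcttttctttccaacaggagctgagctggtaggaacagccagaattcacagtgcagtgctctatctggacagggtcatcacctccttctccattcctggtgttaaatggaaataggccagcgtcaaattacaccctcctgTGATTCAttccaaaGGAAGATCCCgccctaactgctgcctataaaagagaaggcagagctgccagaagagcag
Cxcl12: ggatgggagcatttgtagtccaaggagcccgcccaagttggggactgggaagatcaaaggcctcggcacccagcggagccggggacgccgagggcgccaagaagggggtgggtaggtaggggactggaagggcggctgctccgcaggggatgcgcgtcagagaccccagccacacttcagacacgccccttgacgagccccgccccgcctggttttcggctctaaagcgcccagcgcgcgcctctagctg
Counted with -1 as the base before the start, matches lie at -102 to -93 and -84 to -74 in *Cxcl1*, at -68 to -59 in *Il6*, and at -73 to -67 (AP-1) and -59 to -50 in *Ccl7*. The window of *Cxcl12* holds none. Of the 8 genes higher in the second libraries by intervals 7 had a window, and these 3 hold an NF-kappaB-like pattern while *Ccl25*, *Cxcl16*, *Il1rl1* and *Il5ra* hold none. The windows of the 5 lower genes hold none either. The higher genes shown are thus those with such a pattern, so their printed contrast with *Cxcl12* follows from that choice. Either NF-kappaB-like pattern occurs in 2.06% of the 33469 rat promoters in the table and in 14 of the 105 windows found for genes of the set (13.3%). Of the 20 detected genes with a window, *Cxcl1* and *Il6* hold one. The other 12 windows with one belong to genes that were not detected, such as *Ccl7*, *Ccl20* and *Il23r*. AP-1 matches occur in 6.34% of all promoters and 12 of the 105. A match is a string of letters and not a measured binding site.

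Genes that carry the signals of these receptors were mostly present. Of 11 genes of Janus kinases and STATs, 10 were detected, led by *Stat3* at 60.7, *Stat6* at 48.8 and *Jak1* at 26.7 RPKM on average, with *Stat4* listed at 0. None differed 2-fold between technical replicate numbers, and the largest difference was 0.30, for *Stat5a*. Of 9 further gp130 family genes 7 were detected. *Clcf1*, a ligand of the ciliary neurotrophic factor receptor, had 3.10, 8.26, 3.48 and 8.52 RPKM and was 2-fold higher in the second libraries. *Lifr*, the gp130 partner for leukemia inhibitory factor, was lower there, with 5.51, 3.29, 5.76 and 3.29 RPKM.

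Feedback inhibitors included the largest difference among these pathway genes. *Socs2*, which dampens growth hormone and cytokine receptor signalling, had 14.6, 1.45, 15.5 and 1.53 RPKM and was lower in both second libraries by 2.69 on the log2(RPKM + 1) scale. The other detected members of this list, such as *Socs3* and *Socs4*, differed by at most 0.40. Of the 11 genes of interleukin 1 and Toll signalling 8 were detected, led by *Irak1* at 44.3 RPKM. None was 2-fold different, and *Irak4* and *Myd88* were higher in the second libraries by 0.36 and 0.35.

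All 11 NF-kappaB genes were detected, and 10 had both second libraries above both first ones as deposited, against 57.2% of all genes. *Rel* was the exception, lower by 0.12. With libraries scaled to the same sum 7 were higher, against 37.7% of all genes, and *Chuk*, *Ikbkb* and *Ikbkg* turned lower. Median-ratio scaling gave 8, against 45.8% of all genes. The median difference of the 11 was 0.33, against 0.10 over all genes, and 0.21 against -0.023 with libraries scaled to the same sum. *Nfkb1*, the precursor of the p50 subunit, had 21.5, 35.9, 21.0 and 36.0 RPKM, and the inhibitors *Nfkbia*, *Nfkbie* and *Nfkbib* were higher by 0.62, 0.66 and 0.57. None reached 2-fold. Among atypical receptors and related factors outside the symbol rule, *Mif*, a cytokine stored in many cells, had 65.1, 101, 69.7 and 94.8 RPKM, and *Kitlg*, the ligand of *Kit*, was lower in the second libraries by 0.50, with *Kit* listed at 0. No gene of these pathway lists differed 2-fold between passages as labelled.

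**Figure D4:**
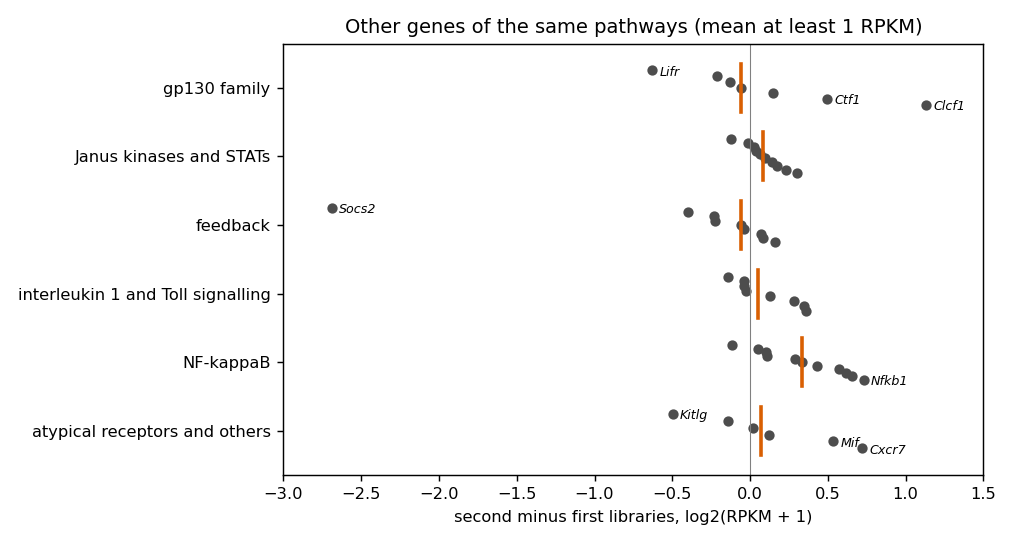
Difference between second and first libraries on the log2(RPKM + 1) scale (horizontal axis) for pathway genes averaging 1 RPKM or more, by list, with orange bars at the list medians. Socs2 lies lowest at -2.69 and Clcf1 highest at 1.13. As deposited, 10 of 11 NF-kappaB genes lie above 0, against 7070 of 11025 genes in all. With libraries scaled to the same sum 7 do, against 5083 of 11028. Cxcr7 is also a gene of the set.

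Technical properties moved with the same split. Over all 11025 genes averaging 1 RPKM or more, the difference between second and first libraries fell with gene length, with a Spearman rho of -0.42 across genes, which are not independent replicates and share the same 4 libraries. Over the 26 genes of the set it was -0.50. Length-bin medians ran from 0.28 for short genes to -0.22 for long ones. Ligands and receptors differed in length, with medians of 1633 and 3696 bp among the 12 ligands and 13 receptors averaging 1 RPKM or more. Relative to genes of similar length *Ccl2* stood at 2.08, *Cxcl1* at 1.99, *Il1rl1* at 1.79 and *Cxcl12* at -1.53. *Cxcr4*, at -1.07 with a recovered length of 854 bp, then passed 2-fold narrowly. Recovered lengths can be too short, which would place a gene in the wrong length bin, so this pass of *Cxcr4* is uncertain. The Schwann cell markers moved with the split as well. As deposited, 6 of 9 were lower and 3 higher in both second libraries, against 30.5% and 57.2% of all genes. With libraries scaled to the same sum, 8 were lower and 1 higher, against 46.3% and 37.7% of all genes. *S100b*, a calcium-binding protein of glia, had 85.7, 31.8, 86.6 and 32.8 RPKM, and the summed markers were 4649, 3818, 4645 and 3767 RPKM. The summed macrophage and leukocyte markers were 3.17, 3.999, 3.11 and 3.72 RPKM. The part of these properties in the differences of the chemokine and interleukin genes was not tested.

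**Figure D5:**
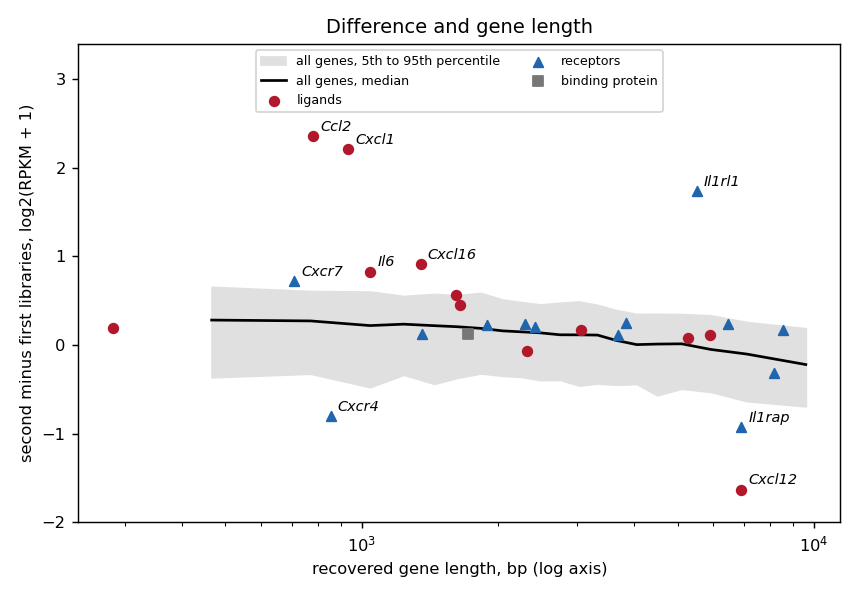
Difference between second and first libraries on the log2(RPKM + 1) scale against gene length (horizontal log axis, bp) for the 26 genes averaging 1 RPKM or more, over the median (line) and the 5th to 95th percentile (grey) of all genes in length bins. At their recovered lengths, which can be too short, 7 genes exceed the 95th percentile (Ccl2, Cxcl1, Il1rl1, Cxcl16, Il6, Cxcr7 and, barely, Cxcl14). Under the 5th lie 3 (Cxcl12, Il1rap and Cxcr4), and 16 lie between.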

How the data were processed

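According to the methods and labels, poly(A) RNA of unmodified S16 cells was made into TruSeq libraries and sequenced from single ends. STAR placed the reads on the rat genome build rn5 (uniquely mapped reads were kept), and HTSeq counted them by gene with strand ignored; FastQC served as the read check, and versions are not given in the sources used here. The authors deposited RPKM values, 1 per gene symbol and library. RefSeq annotation is named with the deposited values but Ensembl in the methods, and nothing was tested on counts. Totals per library are not stated. The methods give an approximate read number per cell line that is below the recovered total of every single library. This difference was not resolved.

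From the deposited RPKM values the smallest whole numbers of reads, the totals and the gene lengths that give them were recovered with exact fractions (relative tolerance 1e-12) for all 20333 genes above 0. A factor common to all libraries of a gene can remain hidden, which makes its recovered reads and length too small and its intervals too wide. Libraries were grouped by passage, and by technical replicate number as labelled. The 2 libraries of a passage were averaged first, giving n = 2 populations for each mean ± SD. Differences were taken on the log2(RPKM + 1) scale, which understates low genes, over genes averaging 1 RPKM or more. No p-values were computed across genes. Intervals were exact Clopper-Pearson (95%). Recovered depth was 34246093 to 41382234 reads per library. All symbols of the set were matched to the RefSeq table of GRCr8, 1 further pathway symbol was not listed, and GRCr8 gave names, neighbours and promoter sequences only. Genes were named by a fixed rule: every gene of the set with a mean of at least 1 RPKM, those 2-fold different in either comparison, both sides of the ligand and receptor pairs, the 5 highest below 1 RPKM, and the leading or most different pathway genes; other names were chosen after their values were seen, and some genes that the rule names are not reported here. The genes, lists and pairs were chosen with earlier results of these data known. Alternatives were other scalings, minimums, a pseudocount of 0.1, each library left out and comparisons within a passage or number; those on gene length, within a passage and on intervals were chosen after seeing the data. Python 3.11.15, numpy 2.4.6, pandas 2.3.3, scipy 1.17.1 and matplotlib 3.10.9 were used, and the recovery was tested on simulated data.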

Additional observations from a re-analysis of the deposited data

Results flagged for a closer look

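For 3 scarce genes the second library stood on opposite sides of the first in the 2 passages; in each case this is 1 library against another and the difference between passages was not tested. *Cxcl10*, an interferon-induced chemokine, had 16, 7, 9 and 14 reads and log2(RPKM + 1) differences of -0.32 at passage 9 and 0.13 at passage 39. *Il1rapl1*, a neuronal relative of the interleukin 1 receptors, had 8, 9, 17 and 5 reads and differences of 0.038 and -0.22. *Cxcr3*, the receptor for *Cxcl10*, had 8, 2, 4 and 6 reads and differences of -0.11 and 0.024.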

How the results depend on the processing

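No paired analysis was possible because each passage is a single population and neither comparison was tested; whether the shared technical replicate numbers pair the libraries by design is not stated. Counts of detected genes followed the minimum. With 0.1 RPKM in place of 1, 44 genes were detected, 20 of them ligands and 23 receptors. With 5 RPKM, 14 were detected, 6 of them ligands, and the count of genes 2-fold different between technical replicate numbers dropped to 2 (1.03% of all genes). Asking for 10 reads in every library instead gave 13 ligands and 22 receptors. Leaving out each library in turn gave 24 to 25 genes, 11 to 12 ligands and 12 to 13 receptors. The count 2-fold different between passages was 0 within the first and within the second libraries and ranged from 0 to 3 when a library was left out, because the remaining libraries of the passages then differ in technical replicate number. The count between technical replicate numbers was 4 within each passage, 4 to 5 with a library left out, 5 under median-ratio and same-sum scaling (1.28% and 1.41% of all genes), 8 with a pseudocount of 0.1 RPKM (2.28%) and 13 by intervals that were apart with a ratio of at least 2 (3.43%), against 1.09% for the 4 reported. Over these alternatives, which include each passage alone and the comparison with similarly long genes, the differences of *Ccl2* (2.08 to 2.69), *Il1rl1* (1.62 to 2.04), *Cxcl1* (1.98 to 2.99) and *Cxcl12* (-2.35 to -1.53) kept their sign. Depth limits genes of few reads, such as *Il33*, *Ccl7* and *Il21*.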
